A study of Mus musculus with 8 samples.

Results

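The odorant receptor genes Olfr1417 to Olfr1505 form a cluster on mouse chromosome 19, the chromosome that also carries Emx2. Its members were the genes with a symbol of Olfr and a number in that range, without the suffix of a pseudogene, that had a row of their own in the deposited array values. These were 56 genes of the 1015 Olfr genes with a row of their own, and all 56 are class II receptors by the family name in the gene table. The gene table lists 60 such genes in the range, and 4 had no row of their own. Olfr1425 shared a row with Olfr1424 and Olfr1426, Olfr1437 shared a row with Olfr1431, Olfr1434, Olfr1436 and Olfr235, and Olfr1432 and Olfr1458 were on no row. No member had more than 1 row of its own, and Olfr1502 and Olfr1505 also shared a row.

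Olfactory mucosa was taken from 8 mice at postnatal day 1, and the RNA of each mouse was measured on its own Affymetrix Mouse Gene ST array. The 4 knockouts were OmpCre:Emx2(fl/fl), in which Cre recombinase made from the Omp locus can delete both floxed copies of Emx2. Controls 1 to 3 were OmpCre:Emx2(fl/+) littermates and control 4 was an Emx2(fl/fl) littermate without Cre. All 8 mice were of a mixed 129 x C57BL/6J background. Omp is turned on in mature olfactory sensory neurons (OSNs), so Cre acts there and not in their immature precursors, and the insertion of Cre replaces 1 copy of Omp. The labels give neither litter nor sex, and they do not say from which strain each mouse had its copies of the cluster, which therefore cannot be told apart from genotype at Emx2. Values are log2 signals of a row of the array, and differences are knockout minus control on the log2 scale with 4 mice per group, each with its SE after ±. Signals of different genes come from different probes and were not compared with each other.

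Odorant receptors (ORs) are G-protein-coupled receptors that detect odor molecules on the cilia of OSNs. Each OSN transcribes a single OR gene out of the whole repertoire, so that the abundance of an OR mRNA in the tissue follows mainly from how many OSNs have chosen that gene. Class I ORs resemble the receptors of fishes and class II ORs are the larger group of land vertebrates. Emx2 and Lhx2 are homeodomain factors, and TAAT-type homeodomain sequences together with elements bound by O/E (Ebf) factors are recurring features of OR promoters. In these whole-tissue samples, fewer OSNs with a given OR and less OR mRNA per OSN cannot be told apart.

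The 250 bases before the annotated start were searched for TAATTA and TAATGA as homeodomain-type sequences and for CCCNNGGG as the core of an O/E-type element, each on both strands. Matches of TAATTA and TAATGA that overlap were counted separately. A window was found for 54 of the 56 members (RefSeq, GRCm38.p6). In 47 of them the gene model begins at the start codon, so these windows are the bases before the coding sequence and need not hold the transcription start. The 5 windows below belong to the 4 members of smallest p among those lower in the knockouts and, for contrast, to Olfr1467, which had a higher mean in the knockouts. Capitals mark the matches of TAATTA and TAATGA on either strand, and each sequence runs 5′ to 3′ on the strand of its gene. The window of Olfr1424 is chr19:12059751-12060000, that of Olfr1457 chr19:13095647-13095896, that of Olfr1419 chr19:11871306-11871555 and that of Olfr1428 chr19:12109545-12109794, all on the minus strand. The window of Olfr1467 is chr19:13364380-13364629 on the plus strand.
Olfr1424: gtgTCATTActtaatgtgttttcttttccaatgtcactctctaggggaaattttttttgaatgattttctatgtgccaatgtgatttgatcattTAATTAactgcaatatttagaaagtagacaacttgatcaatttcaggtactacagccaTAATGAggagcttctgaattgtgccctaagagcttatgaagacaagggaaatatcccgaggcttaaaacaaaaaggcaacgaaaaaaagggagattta
Olfr1457: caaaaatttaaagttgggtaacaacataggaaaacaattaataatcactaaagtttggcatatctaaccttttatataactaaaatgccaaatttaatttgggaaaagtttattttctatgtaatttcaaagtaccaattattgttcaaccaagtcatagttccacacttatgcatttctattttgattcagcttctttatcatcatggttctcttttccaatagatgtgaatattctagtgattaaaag
Olfr1419: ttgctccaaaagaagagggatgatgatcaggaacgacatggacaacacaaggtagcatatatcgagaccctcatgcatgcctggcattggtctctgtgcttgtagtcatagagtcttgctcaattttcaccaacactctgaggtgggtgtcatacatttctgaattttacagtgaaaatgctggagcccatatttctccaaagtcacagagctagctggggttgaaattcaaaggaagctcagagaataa
Olfr1428: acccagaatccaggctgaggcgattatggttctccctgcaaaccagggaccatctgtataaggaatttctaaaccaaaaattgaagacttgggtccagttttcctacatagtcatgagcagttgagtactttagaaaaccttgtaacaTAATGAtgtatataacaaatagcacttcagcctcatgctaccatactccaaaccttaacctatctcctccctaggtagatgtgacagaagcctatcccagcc
Olfr1467: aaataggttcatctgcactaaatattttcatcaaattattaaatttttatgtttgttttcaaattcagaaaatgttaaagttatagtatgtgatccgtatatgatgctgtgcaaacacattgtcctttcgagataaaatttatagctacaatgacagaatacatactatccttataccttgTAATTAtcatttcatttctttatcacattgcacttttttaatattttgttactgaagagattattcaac
Olfr1424 held 3 matches, Olfr1428 and Olfr1467 held 1 each, and Olfr1457 and Olfr1419 held 0.

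Some series-wide values bear on all results. Array medians lay between 8.64 and 8.68. Emx2 was at 10.83, 10.74, 10.58 and 10.89 in controls 1 to 4 and at 10.25, 10.14, 10.34 and 10.14 in knockouts 1 to 4, so that every knockout was below every control (-0.55 ± 0.08, limma adjusted p = 0.201). The mature OSN markers Omp, Cnga2, Adcy3 and Gnal and the sustentacular marker Cyp2g1 ranked at or above the 93.3 percentile of all rows. So did the sustentacular marker Ermn and the gland marker Bpifb9b. The immature OSN markers Gap43 and Gng8 ranked at 93.0 and 79.9, the sustentacular marker Cyp1a2 at 92.3 and the gland marker Obp1a at 61.8. Obp1a was at 13.5 in control 1 and at 7.81 to 10.01 in the other mice. Control 2 stood apart on the first principal component (32.9, against -11.8 to 6.11 in the others) and had the highest signal of the immune and blood list (0.75 above its mean over mice, the other mice -0.16 to -0.06). Y-linked transcripts were high in controls 2, 3 and 4 and in knockout 3 (mean signal 10.5 to 10.7). They were lower in control 1 (8.09) and lowest in knockouts 1, 2 and 4 (7.05 to 7.51).

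As a group, the members had slightly lower means in the knockouts, by about as much as the other ORs. The mean was lower in the knockouts for 41 of 56 members (73.2%), for 680 of the 959 other Olfr genes (70.9%) and for 48.6% of all 21789 rows with 1 gene symbol. The median difference was -0.09 for the members, -0.08 for the other Olfr genes and 0.0024 for all rows. Of the other 828 class II genes 73.8% were lower, with a median of -0.10. The 117 class I genes had a median of 0.00032, and 49.6% were lower. The mean difference of the members was 0.0018 above that of the other Olfr genes, and this small value changed sign when knockout 2 was left out (-0.02).

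The mature OSN list bore on this direction. Of its 23 measured genes 19 had lower means in the knockouts, and their mean difference was -0.11 and their median difference -0.04. S100a5 (-0.58), Cidea (-0.43), Kirrel2 (-0.33) and Omp (-0.27) had the most negative values. Control 4, which lacks Cre, keeps both copies of Omp, whereas in the other mice Cre replaces 1 copy. The other 4 genes of the list had higher means, the largest in Cnga4 (0.24 ± 0.12). When each array was scaled to the mean of this list, the median of all rows moved from 0.0024 to 0.11, the median of the members turned to 0.02 and that of the other Olfr genes to 0.03, and 24 of 56 members were lower, as were 43.4% of the other Olfr genes and 10.2% of all rows. Scaled to the median of the list instead, an alternative chosen after seeing the data, the median of all rows was 0.08, that of the members stayed below 0 at -0.01, and 31 members were lower. Each scaling moves all rows of an array by the same amount. The members' place relative to the median of all rows (-0.10) therefore cannot change with it and is no check of the direction. The part of mature OSN number or maturity in the lower OR signals was not tested.

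No member passed adjustment over all rows, nor did any other row (limma, 0 of 21789, 0%). At an unadjusted p under 0.05, 8 members were lower (14.3%), where 2.55% of all rows and 11.2% of the other Olfr genes were lower at this level. Of the other class II genes 12.7% were. Among Olfr genes of chromosomes 2, 7, 9, 10, 11, 14, 16 and 17, the share ran from 6.4% on chromosome 9 to 17.6% on chromosome 16. There were 0 higher members at p under 0.05, where 2.62% of all rows were higher. At p under 0.01, 4 members were lower (7.14%), against 0.601% of all rows, 3.75% of the other Olfr genes and 4.35% of the other class II genes. In the same 4 members all knockouts were below all controls (7.14%). This share was 1.48% for all rows, 3.75% for the other Olfr genes and 4.23% for the other class II genes. Among the chromosomes named above it ran from 0% on chromosomes 14 and 16 to 11.6% on chromosome 11. In 0 members were all knockouts above all controls (1.62% of all rows). By the methods' t-test 6 members were lower at p under 0.05 and 3 at p under 0.01.

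Olfr1424, a receptor of the MOR239 family that the study also measured in its other mutant strains, had the smallest p of the cluster. Its log2 signal was 7.71, 7.67, 7.60 and 7.94 in controls 1 to 4 and 6.74, 6.97, 7.28 and 7.26 in knockouts 1 to 4. The groups did not overlap, and knockouts 1 and 2 were the lowest of the 8 mice. The difference was -0.67 ± 0.13 (fold 0.629, limma adjusted p = 0.440). In the row that names Olfr1424, Olfr1425 and Olfr1426 together, every knockout was likewise below every control. It was at 9.31, 9.22, 9.22 and 9.36 in the controls and at 8.85, 9.06, 8.91 and 8.77 in the knockouts (-0.38 ± 0.07, limma adjusted p = 0.386). Because this row names all 3 genes, how its signal divides among them is uncertain.

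Olfr1457, of the MOR202 family, was at 6.79, 6.84, 7.06 and 7.12 in controls 1 to 4 and at 6.52, 6.66, 6.54 and 6.47 in knockouts 1 to 4. The groups were apart, and the knockouts varied less (SD 0.0806) than the controls (SD 0.160). The difference was -0.40 ± 0.08 (fold 0.756, limma adjusted p = 0.444). Olfr1419, of the MOR266 family, was at 7.99, 8.01, 8.28 and 8.12 in the controls and at 7.67, 7.85, 7.67 and 7.82 in the knockouts. Every knockout was again below every control (-0.35 ± 0.08, fold 0.785, limma adjusted p = 0.519). Olfr1428, a second MOR239 receptor, was at 9.05, 8.90, 9.02 and 8.95 in the controls and at 8.70, 8.84, 8.88 and 8.67 in the knockouts. Its groups did not overlap, but control 2 and knockout 3 lay closer to each other than the SD within either group, with a difference of -0.21 ± 0.06 (limma adjusted p = 0.794).

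The other 4 lower members at p under 0.05 had groups that overlapped in at least 1 mouse. Olfr1442 (MOR202) ranged from 8.61 to 8.89 in controls and from 8.15 to 8.64 in knockouts (-0.34 ± 0.11), with knockout 3 inside the control range. Olfr1426 (MOR239) ranged from 7.83 to 8.19 in controls and from 7.52 to 7.88 in knockouts (-0.29 ± 0.10), again with knockout 3 inside the control range. Knockout 3 was also the highest knockout for Olfr1461 and Olfr1443, both MOR202. Olfr1461 was at 7.88 to 8.15 in controls and at 7.52 to 8.001 in knockouts (-0.28 ± 0.11). Olfr1443 was at 6.57 to 6.81 in controls and at 6.38 to 6.73 in knockouts (-0.21 ± 0.09). With Y-linked signal as a covariate 4 members were lower at p under 0.05, and with scaling to the mature OSN list 3 were. Of the 17 other settings in which these members were tested, Olfr1424 and Olfr1457 were at p under 0.05 in 17 and Olfr1442 in 16. Olfr1419, Olfr1428 and Olfr1426 were so in 15, Olfr1461 in 7 and Olfr1443 in 6. The settings use the same 8 arrays on which these members were picked, and some leave their values unchanged. The tally is therefore no independent check.

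**Figure D1:**
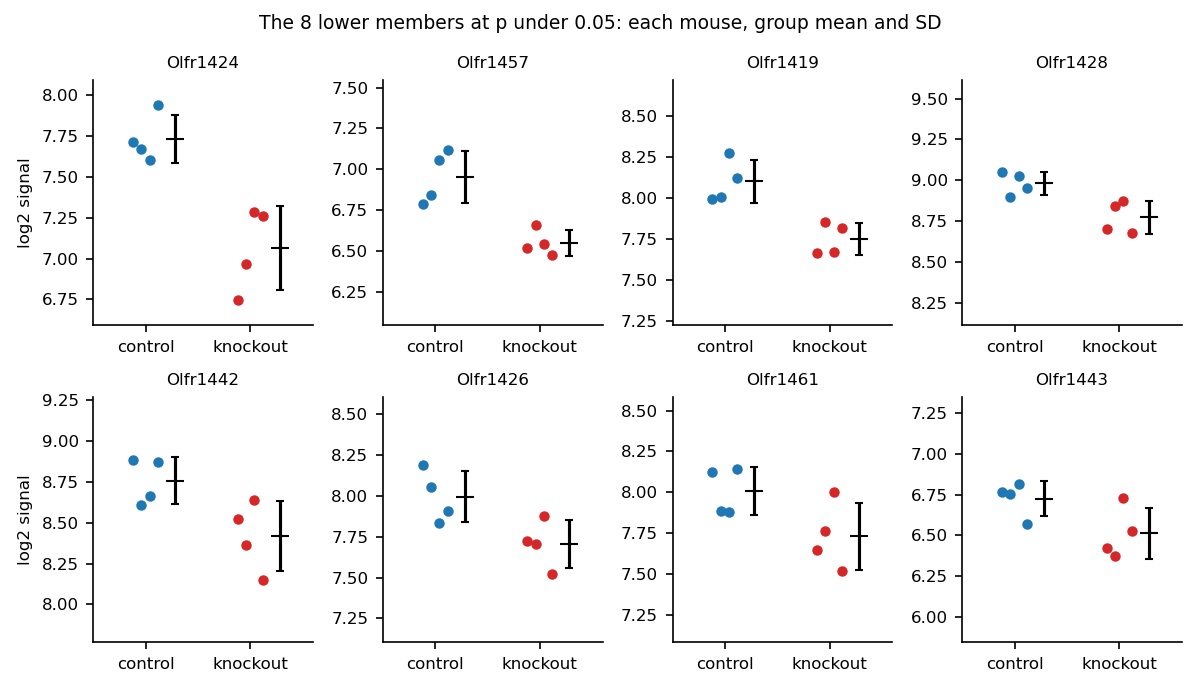
Log2 signal of the 8 members that were lower in the knockouts at an unadjusted limma p under 0.05 in each control (blue) and knockout (red), with the group mean and SD in black; every panel spans the same height on the log2 axis. Olfr1424, Olfr1457, Olfr1419 and Olfr1428 had no overlap between the groups, and scaled to the mature OSN list 3 members remained at this level.

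No member with a higher mean in the knockouts reached p under 0.05. Olfr1502, of the MOR211 family, had the largest difference in this direction (0.19 ± 0.11, limma adjusted p = 0.910), with 4.66, 4.98, 4.92 and 4.93 in controls 1 to 4 and 4.89, 5.09, 4.93 and 5.33 in knockouts 1 to 4. The knockouts overlapped the controls, and knockout 4 was the highest. Its mean signal of 4.97 was far below the median of all rows (9.17). A brighter row that names Olfr1502 and Olfr1505 together went the other way. It had means of 8.13 in controls and 8.06 in knockouts (-0.08 ± 0.10). The next 5 by p were all MOR202 receptors, with differences of 0.11 ± 0.08 for Olfr1467, 0.10 ± 0.08 for Olfr1475, 0.08 ± 0.09 for Olfr1449, 0.09 ± 0.10 for Olfr1465 and 0.11 ± 0.14 for Olfr1451. Olfr1451 changed sign without knockout 3 (-0.0013). Of the other receptors that the study named, Olfr1440, a MOR215 receptor for which it made an in situ hybridization probe, was at 9.66, 9.34, 9.55 and 9.57 in the controls and at 9.23, 9.63, 9.43 and 9.43 in the knockouts. Its groups overlapped, and its difference of -0.10 ± 0.09 turned to 0.0091 with scaling to the mature OSN list. Olfr1462 differed by -0.12 ± 0.12 and Olfr1495 by 0.03 ± 0.12, and Olfr1495 changed sign without control 3 (-0.08) and without knockout 3 (-0.04).

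Along the chromosome the lower members were not spread evenly. In the order of the gene table, the first 16 members, Olfr1417 to Olfr1443, all had lower means in the knockouts, with a median of -0.18. Of these 16, 6 were lower at p under 0.05 (37.5%, against 2.55% of all rows and 11.2% of the other Olfr genes), a share that the choice of the stretch favours. Of the remaining 40, Olfr1444 to Olfr1505, 25 had lower means, with a median of -0.03, and Olfr1457 and Olfr1461 were at p under 0.05. The border between these stretches was drawn after the values were seen, at the first member that was not lower, so no test was made of it. The border rests on the sign of Olfr1444 (0.04 ± 0.10), whose difference was smaller than its SE. It falls between blocks of receptors that are parted by protein-coding genes other than receptors, which is no check of the split. The blocks were Olfr1417 to Olfr1420 (4 of 4 lower, median -0.13), Olfr1423 to Olfr1441 (10 of 10, -0.17), Olfr1442 and Olfr1443 (2 of 2, -0.28), and Olfr1444 to Olfr1505 (25 of 40).

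**Figure D2:**
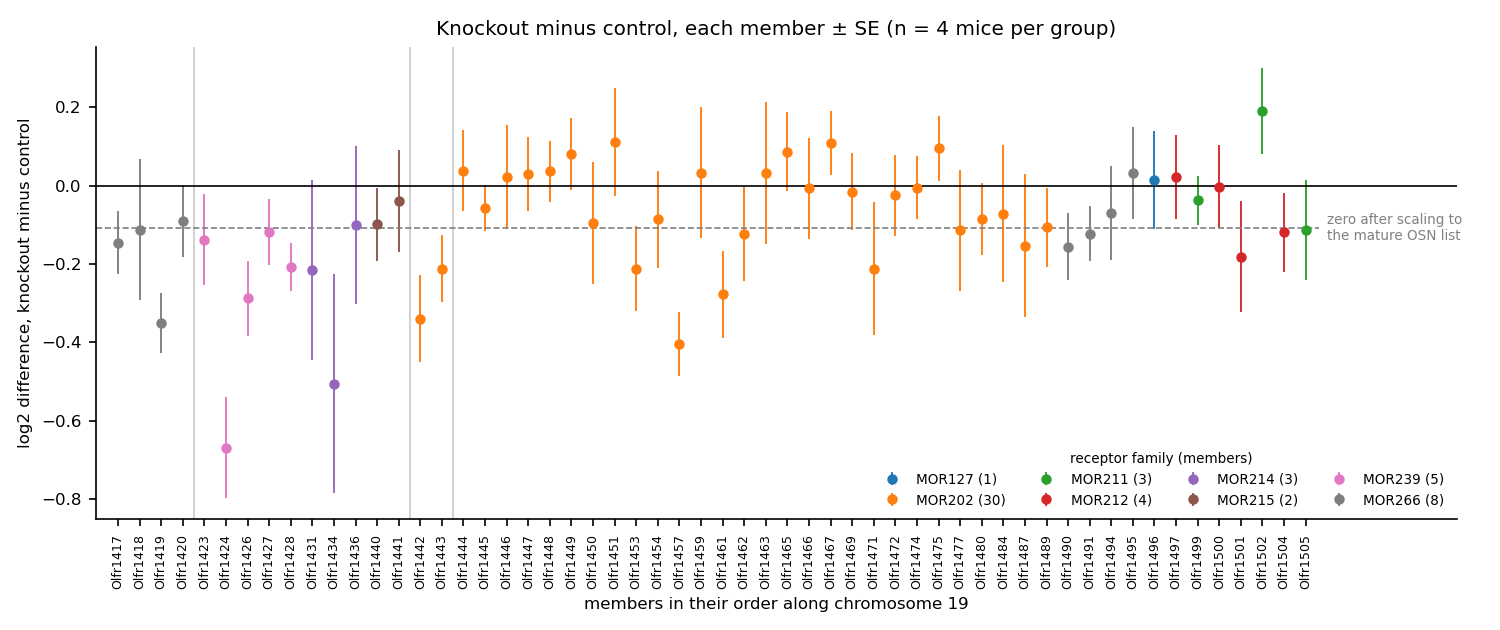
Log2 difference (knockout minus control, points) with its SE (bars) for the 56 members in their order along chromosome 19, coloured by receptor family; grey vertical lines part the 4 blocks and the dashed line is where 0 lies after scaling to the mature OSN list. The first 16 members all lay below 0, and 12 of them also lay below the dashed line, whereas of the remaining 40 members 25 lay below 0 and 12 below the dashed line.

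The other settings use the same 8 arrays on which the stretches were chosen and are therefore no check of the split. Scaled to the mature OSN list, 12 of the first 16 members were lower (median -0.07) and 12 of the remaining 40, whose median turned to 0.08. With Y-linked signal as a covariate, 15 of the first 16 were lower (median -0.18), against 18 of the remaining 40 (median 0.01). Leaving out each mouse in turn left 14 to 16 of the first 16 lower. The median of the remaining 40 was above 0 without control 4, the control that lacks Cre (0.01), without knockout 1 (0.0022) and without knockout 4 (0.0057).

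Most receptor families lie in a single stretch, so that for them family and position cannot be told apart. MOR202 and MOR266 lie in both stretches. MOR266 lies at 2 places of the cluster. Its 4 members at the beginning, Olfr1417 to Olfr1420, had a median of -0.13, and its 4 members near the end, Olfr1490, Olfr1491, Olfr1494 and Olfr1495, had a median of -0.10, with Olfr1495 not lower. Olfr1417, the first member, was at 7.89, 7.79, 7.81 and 7.77 in controls and at 7.67, 7.87, 7.67 and 7.47 in knockouts (-0.15 ± 0.08), where only knockout 2 was inside the control range. MOR239, Olfr1423 to Olfr1428, had 5 of 5 members lower (median -0.21), of which 3 were at p under 0.05, a level that 2.55% of all rows and 11.2% of the other Olfr genes reached in this direction. MOR214, which is Olfr1431, Olfr1434 and Olfr1436, had 3 of 3 lower (median -0.22), with wide spreads, and MOR215, Olfr1440 and Olfr1441, had 2 of 2 lower (median -0.07). MOR202 was the largest family, with 30 members. The 2 in the first stretch, Olfr1442 and Olfr1443, were lower, and of the 28 in the second stretch 17 were lower, with a median of -0.02. The families at the far end differed little, with medians of -0.06 for MOR212 (3 of 4 lower) and -0.04 for MOR211 (2 of 3 lower), and the single MOR127 receptor, Olfr1496, was at 0.01. Olfr1505, the last member, differed by -0.11 ± 0.13, which turned to 0.0087 without control 4.

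Genes of the region other than receptors had medians nearer to 0 than that of all 56 members (-0.09). The 40 members Olfr1444 to Olfr1505, with a median of -0.03, lay nearer to 0 than the genes just before and just after the cluster. The 11 measured within the span of the cluster had a median of 0.01 (5 lower), and 1 of them, Fam111a, named here after its value was seen, was higher at p under 0.05 (0.21 ± 0.06). The 10 nearest genes before the cluster had a median of -0.05 (7 lower) and the 10 nearest after it one of 0.05 (4 lower), with 0 of them at p under 0.05 in either direction. The other 616 genes of chromosome 19 had a median of -0.01 and 55.4% were lower. Olfr76, Olfr262 and Olfr235, receptors of chromosome 19 outside the range, differed by -0.11 ± 0.07, 0.0083 ± 0.10 and -0.10 ± 0.16. Medians of OR genes on chromosomes 2, 7, 9, 10, 11, 14, 16 and 17 ranged from -0.02 on chromosome 9 to -0.16 on chromosome 17. The cluster's -0.09 lay inside this range. Further chromosomes with OR genes were not summarised.

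From mouse to mouse the members moved with the other ORs. The mean deviation of the 56 members from their own means over the 8 mice was 0.10, 0.0024, -0.08 and 0.17 in controls 1 to 4 and -0.14, 0.01, 0.07 and -0.14 in knockouts 1 to 4. Controls 1 and 4 were highest, knockouts 1 and 4 were lowest, and the groups overlapped. The other Olfr genes had 0.12, 0.01, -0.08 and 0.15 in the controls and -0.11, -0.05, 0.12 and -0.16 in the knockouts, where knockout 3 came second after control 4. The difference between these means stayed between -0.05 and 0.06 in every mouse. Within groups, the mean of the members had an SD of 0.110 and its difference from the other ORs an SD of 0.0366. Controls 1 and 4 also had the most Omp signal (13.4 and 13.3, against 12.6 to 12.9 in the other mice) and the highest mean of the mature OSN list (0.18 and 0.14).

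**Figure D3:**
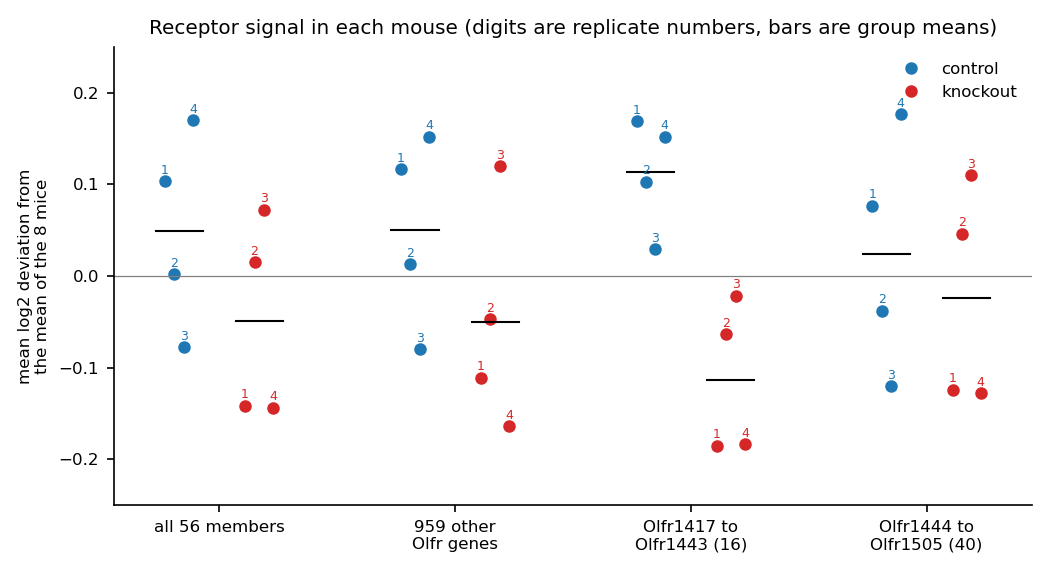
Mean log2 deviation from the mean of the 8 mice, for each control (blue) and knockout (red), over all 56 members, the 959 other Olfr genes, the first 16 members and the remaining 40; digits are replicate numbers and bars group means. The groups overlap in all but the first 16 members, a set chosen after the values were seen (controls 0.03 to 0.17, knockouts -0.19 to -0.02), and scaling to the mature OSN list turns the median difference of all members and of the remaining 40 above 0.

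For the first 16 members the mean deviation was 0.17, 0.10, 0.03 and 0.15 in controls 1 to 4 and -0.19, -0.06, -0.02 and -0.18 in knockouts 1 to 4, and the groups did not overlap. Set against the other Olfr genes of the same mouse, the first 16 were at 0.05, 0.09 and 0.11 in controls 1 to 3 and close to 0 in control 4, and at -0.07, -0.02, -0.14 and -0.02 in the knockouts. Knockout 3, whose ORs as a whole were high, thus had the lowest value of the first 16 relative to its other ORs. These are descriptions of a set chosen on the same values. The remaining 40 members had deviations of -0.12 to 0.18 in controls and of -0.13 to 0.11 in knockouts.

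**Figure D4:**
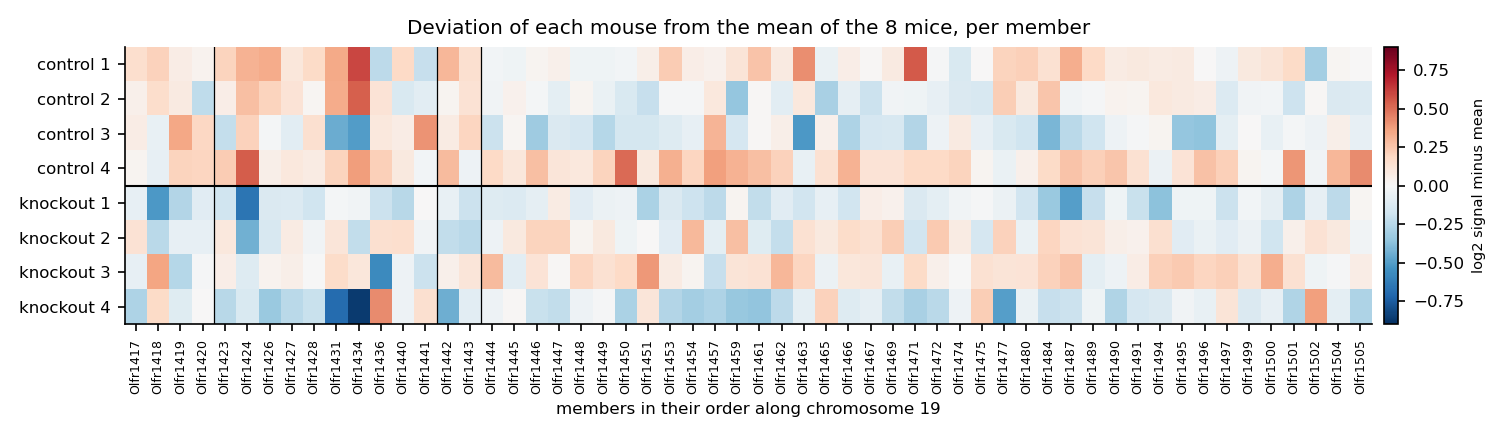
Log2 signal of each of the 56 members (columns, in their order along chromosome 19) in each mouse (rows) minus the mean of the 8 mice, as colours from -0.9 (blue) to 0.9 (red), with black lines between the groups and between the blocks. Control 4 is above the mean for 48 members and knockout 1 for 6, while knockout 3 is above it for 39.

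The Y-linked signal was unevenly divided between the groups, as 3 of 4 controls and 1 of 4 knockouts had a high one. Control 1, the only control counted as low, had a mean signal of 8.09, above that of knockouts 1, 2 and 4 (7.05 to 7.51). Control 1, with low signal, had the second highest mean of the members, and control 3, with high signal, the lowest mean of the controls. Knockout 3, with high signal, had the highest mean of the knockouts. Among the 4 mice with high Y-linked signal, the 1 knockout had a lower value than the mean of the 3 controls in 22 of 56 members (mean difference 0.04). Among the 4 with low signal, the 3 knockouts were lower than the 1 control in 47 of 56 members (mean difference -0.19). The other Olfr genes had mean differences of 0.09 and -0.22 in the same mice. For the first 16 members the mean differences were -0.12 (11 of 16 lower) and -0.31 (14 of 16 lower). Olfr1424 was lower in the knockouts in each of these sets of mice (-0.45 with high and -0.72 with low Y-linked signal), and so were Olfr1457 (-0.46 and -0.24), Olfr1419 (-0.47 and -0.22) and Olfr1428 (-0.08 and -0.31). Olfr1461 and Olfr1443 were at 0.03 and 0.02 in the mice of high signal and at -0.48 and -0.32 in those of low signal. Sides of these comparisons that hold 1 mouse have no replicate check. Y-linked signal and genotype partly go together in these mice, and the part of sex in the results was not tested.

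Members differed in how much they varied between mice. The median within-group SD was 0.173 for the members, 0.195 for the other Olfr genes and 0.0967 for all rows. The 3 most variable members were the MOR214 receptors that share a row, Olfr1434 (SD 0.471), Olfr1431 (SD 0.386) and Olfr1436 (SD 0.335). Olfr1434 was at 6.88, 6.82, 5.78 and 6.66 in the controls and at 6.25, 6.06, 6.38 and 5.42 in the knockouts. Control 3 and knockout 4 were the lowest of their groups, as they were for Olfr1431 (7.02 and 6.76). With this spread, the difference of -0.51 ± 0.28 in Olfr1434, the second largest of the cluster, had a limma adjusted p of 0.910. Olfr1436 had its lowest value in knockout 3 (5.503) and its highest in knockout 4, so its order differed from that of the other two, and its difference of -0.10 ± 0.20 turned to 0.07 without knockout 3. The least variable members were Olfr1445 (SD 0.0799), at 7.20 to 7.42 over all 8 mice, and Olfr1428 (SD 0.0871). Only 7 members had a mean signal above the median of all rows.

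The sequence matches were found in members of either direction. TAATTA was found in the windows of 12 of 54 members (22.2%), 17.9% of the other Olfr genes and 4.84% of all windows of the same length. TAATGA was found in 16 members (29.6%), 25.1% of the other Olfr genes and 8.59% of all windows. CCCNNGGG was found in 1 member, Olfr1443 (1.85%), in 2.81% of the other Olfr genes and in 11.8% of all windows. The windows of the members were rich in A and T (median 66.8%, against 47.6% in all windows). The median difference was -0.06 for members with TAATTA and -0.10 for those without, and -0.11 with TAATGA and -0.09 without. Of the 4 members shown above that were lower at p under 0.01, Olfr1457 and Olfr1419 held no match. By number of matches, 22 of 32 members with 0, 9 of 14 with 1, 6 of 6 with 2 and 2 of 2 with 3 had lower means. Among those with 2 matches, Olfr1466 (-0.0062 ± 0.13) and Olfr1474 (-0.0047 ± 0.08) lay at 0 within their SE.

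**Figure D5:**
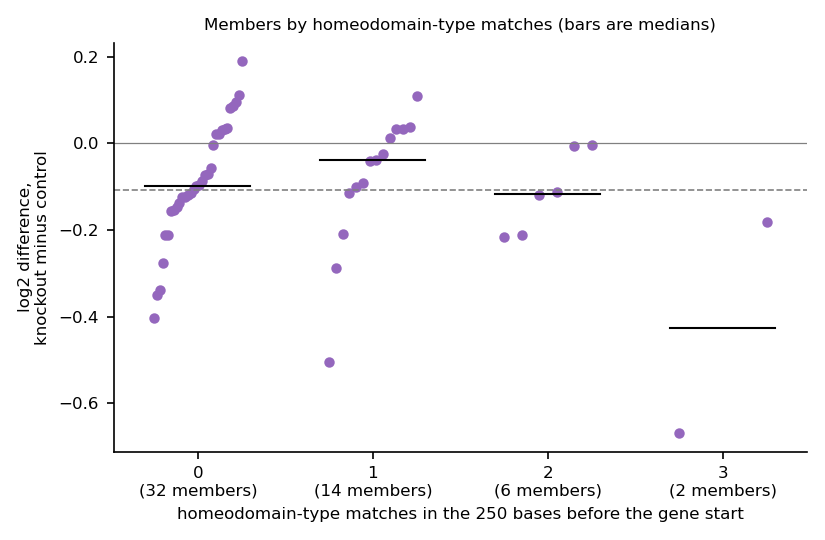
Log2 difference (knockout minus control) of the 54 members with a window, by the number of homeodomain-type matches in the 250 bases before the gene start; points are members, bars are medians and the dashed line is where 0 lies after scaling to the mature OSN list. Medians were -0.10 with 0 matches, -0.04 with 1, -0.12 with 2 and -0.42 with 3, the last from 2 members.

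Genes of OR choice and of the OSN gave the setting of these values. In the list of receptor choice factors, 13 of 24 measured genes had lower means in the knockouts. Of these genes 3 were lower and 1 higher at p under 0.05, and 0 passed adjustment over all rows (limma). Emx2, the deleted gene, was among the 3 lower and had the smallest p. Of all rows, 2.55% were lower and 2.62% higher at p under 0.05, a background for this list and those that follow. Lhx2, which like Emx2 is a homeodomain factor, differed by 0.05 ± 0.08 and by -0.03 without knockout 3. Ldb1, the adaptor that links Lhx2 molecules at OR enhancers, differed by -0.0049 ± 0.04, a difference that turned positive under quantile normalization (0.0020) and scaling to the mature OSN list (0.10). In the mature OSN list 5 genes were lower and 0 higher at p under 0.05, led by the calcium-binding protein S100a5 (-0.58 ± 0.12, limma adjusted p = 0.459). Omp differed by -0.27 ± 0.19. In the immature OSN list 10 of 18 genes were lower, 3 of them at p under 0.05, with the smallest p for Trib3 (-0.20 ± 0.07). In the lists of sustentacular and gland genes (6 of 13 lower), immune and blood genes (8 of 12) and Y-linked genes (3 of 3), 0 genes were at p under 0.05. The genes of smallest p in these lists were Cbr2 (-0.08 ± 0.05), Tyrobp (-0.35 ± 0.23) and Eif2s3y (-2.04 ± 0.96).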

How the data were processed

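RNA from the olfactory mucosa of 8 mice was hybridised by the authors to Affymetrix arrays. The deposited values are log2 signals per row, which the authors made with Affymetrix Expression Console; its version, the summarisation and the genome build are not given in the sources used here. They were used as deposited. Groups came from the genotype labels, and replicate numbers from accession order. Rows were named through the platform annotation: of 35557 rows, 21789 had exactly 1 gene symbol and were tested, 1621 had several and 12147 were unnamed there. Families, classes and gene order came from the RefSeq gene table (GRCm38.p6). Its start positions set the order, the span of the cluster, the neighbouring genes and the blocks. Upstream windows came from RefSeq promoter sequences of the same build.

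Knockouts were compared with controls by limma 3.58.1 (R 4.3.3, lmFit and eBayes, two-sided), with Benjamini-Hochberg adjustment over all 21789 rows at 0.05, and counts at p under 0.05 and 0.01 beside it. limma was tested on simulated data. By the study's methods, the mice of an experiment came from 2 or 3 litters, each of which gave knockouts and controls. The labels do not assign mice to litters, so litter could not enter the fit. The number of arrays limits the precision. The members, lists and tests were chosen with earlier results of these data known, and lists of genes are described without a test. Genes were named by a rule: the receptors that the study names for its mutant strains (Olfr1440, named only as a probe for in situ hybridization, was added later), the 8 lower and 6 higher members of smallest p, the 3 most and 2 least variable, the first and last along the chromosome, Emx2, Lhx2, Omp and Ldb1, and the gene of smallest p in each list. Alternatives were quantile normalization, scaling to the mature OSN list, a filter on dim rows, the methods' t-test, array weights, a variance trend, other choices of rows, Y-linked signal as a covariate and leaving out each mouse, and, chosen after seeing the data, scaling to the median of the mature OSN list. Receptor proteins were not analysed here.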

Additional observations from a re-analysis of the deposited data

Results flagged for a closer look

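Olfr1495, a MOR266 receptor near the end of the cluster, had 1 mouse far from the others of its group. Control 3 was at 8.13 where the other controls were at 8.55 to 8.60, and its gap to the nearest control made up 0.908 of the range of the controls. About 1 in 20 groups of this size is set apart in this way by chance. This was the only one of 64 groups examined with such a mouse, and the difference of Olfr1495 was 0.03 with control 3 and -0.08 without it.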

How the results depend on the processing

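No paired analysis was possible because the replicate numbers come from accession order and pair no mice. In every setting run 0 members passed adjustment over all rows (limma, or the methods' t-test in that setting), while 3 to 11 were lower at an unadjusted p under 0.05, apart from the filter below. Scaling to the mature OSN list turned the median member difference to 0.0154, with 24 members lower, 3 lower and 1 higher at p under 0.05, 1 lower at p under 0.01 and 1 with all knockouts below all controls; by construction this scaling moves every row by the same amount. Scaling to the median of that list, chosen after seeing the data, left the median at -0.0137, with 31 members lower, 4 at p under 0.05, 1 at p under 0.01 and 2 with no overlap. Keeping only rows above the median signal left 7 members, of which 3 were lower, the same 3 of the first stretch that remained, with a median of 0.0211, a mean 0.0683 above that of the other Olfr genes, and 0 at p under 0.05, at p under 0.01 or with no overlap. With Y-linked signal as a covariate 4 members were lower at p under 0.05, and the mean of the members lay at -0.015 relative to the other Olfr genes. It lay at -0.0027 when rows of several members were added, and between -0.0185 and 0.018 when each mouse was left out, with a negative value without controls 1 and 2 and without knockouts 2 and 4. Leaving out each mouse gave 34 to 48 members lower and 14 to 16 lower in the first stretch. It gave 6 to 11 at p under 0.05, 3 to 8 at p under 0.01 and 4 to 10 with no overlap. The highest of the last 2 counts came without knockout 3, and 8 had no overlap without control 3. With a mouse left out, the count with no overlap can only stay at 4 or rise. The share of all rows with no overlap was not counted in these settings. The median member difference ranged from -0.126 without control 3 to -0.041 without knockout 1, and was -0.043 without control 4 and -0.048 without knockout 4. Of the named genes, Ldb1 turned sign with quantile normalization (0.0020), scaling to the mature OSN list (0.10 by its mean, 0.0742 by its median), the Y-linked covariate (0.0065) and some mice left out (-0.0202 to 0.0052). Olfr1436 (0.0078), Olfr1440 (0.0091) and Olfr1445 (0.0506, or 0.0216 by the median) turned with scaling to the mature OSN list and Olfr1462 with the Y-linked covariate (0.0318). With mice left out in turn, Lhx2 ranged from -0.0312 to 0.0991, Olfr1436 from -0.259 to 0.0735, Olfr1451 from -0.0013 to 0.23, Olfr1495 from -0.0783 to 0.0788 and Olfr1505 from -0.17 to 0.0087. Searching the strand of the gene alone left 12 members with TAATTA, 11 with TAATGA and 1 with CCCNNGGG. The causes of these shifts were not tested, and a variance trend, array weights and quantile normalization left the direction of the median member difference unchanged.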
